A study of Danio rerio with 12 samples.

Results

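Liver RNA of zebrafish given TDCIPP with DOX was compared with liver RNA of zebrafish given DMSO. The comparison used the 3 TDCIPP with DOX libraries and the 3 DMSO libraries, which are 6 of the 12 libraries in the series. All 12 came from livers of 3 month old fish of a transgenic line, and the other 6 came from fish given DOX alone (3 libraries) or TDCIPP alone (3 libraries). TDCIPP is tris(1,3-dichloro-2-propyl)phosphate, a chlorinated organophosphate flame retardant, and DMSO is the solvent given to the controls. The labels do not spell out DOX and give no dose, length of exposure, sex or hour of collection. They also do not say what drives the transgene, or whether each library is 1 fish or a pool, and the p-values below reflect only how much the libraries vary. The series title links the flame retardant to the progression of liver tumours by way of inflammation, and this comparison sets the livers given both agents against livers given neither.

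The livers of egg-laying fish make the yolk precursor vitellogenin under the control of oestrogen receptors, and in a female it can be the main messenger RNA of the organ. Hepatocytes also make most plasma proteins, bile acids and lipoproteins, and supply glucose to the body. Growth signals that pass through the kinase ERK induce immediate early transcription factors and, in turn, the phosphatases and adaptors that damp the same pathway. Ribosome production, proteasome capacity and the use of one glycolytic isoenzyme in place of another are processes that differ between resting and growing liver.

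Gene counts summed to between 28621536 and 40877342 reads per library. Enough reads for a test were found in 19160 genes. Levels are given as CPM, read counts set to a common library size after TMM scaling, and differences as log2 fold changes (TDCIPP with DOX over DMSO) with their standard error. A gene is said to rise or fall where edgeR's quasi-likelihood test gave a Benjamini-Hochberg adjusted p under 0.05 over all 19160 genes. Liver genes were abundant in both groups: transferrin (tfa) stood at 45999, 42516 and 39719 CPM in TDCIPP with DOX libraries, against 52850.4, 48127 and 43632 CPM in DMSO libraries, and the liver fatty acid binding protein fabp10a at 6504, 5782 and 3729.6 CPM, against 7256, 15764 and 6833 CPM. Transcripts of other organs were present as well. The intestinal fatty acid binding protein fabp2 had 3.55, 0.32 and 106 CPM in TDCIPP with DOX and 2.13, 8.73 and 55.7 CPM in DMSO, so replicate 3 of each group had the most of it. The same 2 libraries, TDCIPP replicate 1 and DOX replicate 3 had raised intestine or oocyte transcripts, and these 4 are left out where this is said below. Ovary and oocyte markers summed to 2845 CPM in DOX replicate 3. TDCIPP replicate 2 had the next highest sum, 330 CPM, and was not among the libraries left out. The pancreatic protease gene prss1 had 299, 36.6 and 124 CPM in TDCIPP with DOX and 116, 193 and 551 CPM in DMSO. In the DOX group, which shares the fit, replicate 3 stood apart, with a lowest within-group correlation of log2 CPM of 0.854.

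In all, 1021 genes rose (5.33% of those tested) and 1220 fell (6.37%) in TDCIPP with DOX libraries relative to DMSO libraries. The median log2 fold change was 1.83 among the genes that rose and -1.47 among those that fell, and 1893 of the 2241 calls (84.5%) had a log2 fold change of at least 1 in size. The 3 libraries of one group lay wholly above or below the 3 of the other in 7499 genes (39.1%). The result depended on how libraries were scaled. The median over all tested genes was 0.10 with TMM. With library totals it was 1.11, and 6966 genes rose against 305 that fell (95.8% higher). With library totals that left out the vitellogenins it was 0.59, with 2930 higher and 596 lower (83.1% higher). From here on, directions are those found with TMM, and where a printed median of a list changes sign with library totals, that value is given beside it. Without the 4 libraries with intestine or oocyte transcripts, 1202 genes rose and 1104 fell. Leaving out any single library of the compared groups lowered the counts, to 440 to 674 higher and 543 to 929 lower, and leaving out DOX replicate 3 raised them to 1673 higher and 1718 lower. For the gene lists below, counts with 1 library left out cover these 7 libraries.

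**Figure D1:**
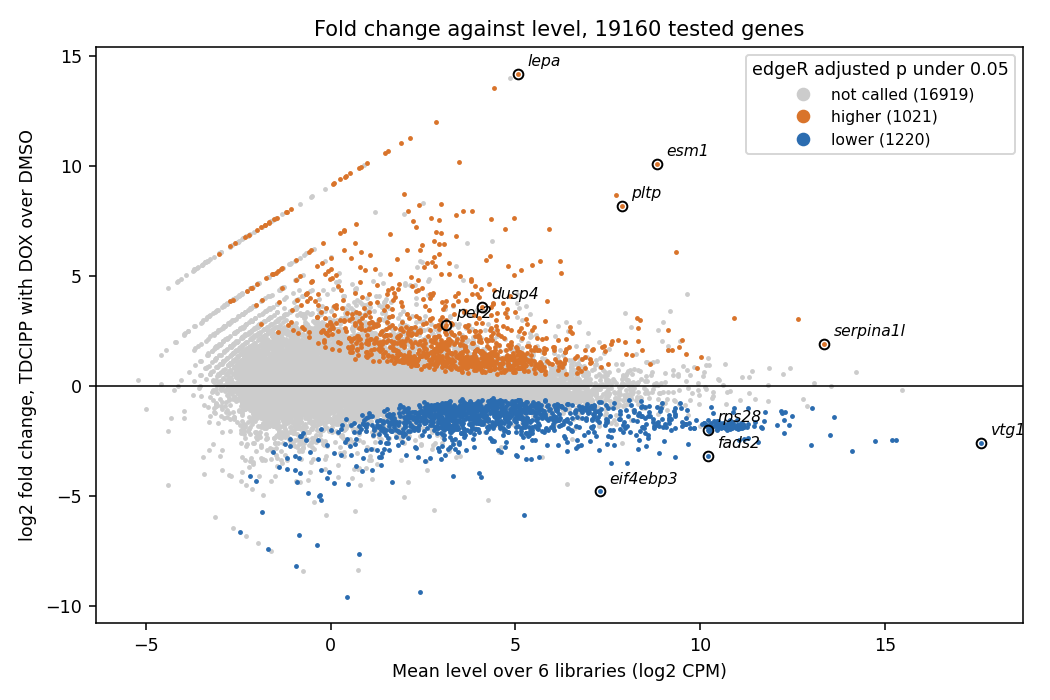
Log2 fold change (TDCIPP with DOX over DMSO, vertical axis) against the mean level (log2 CPM over the 6 libraries, horizontal axis) of the 19160 tested genes. Orange points are the 1021 genes that rose, blue points the 1220 that fell and grey points the rest. The most abundant gene, vtg1, lies at the far right below the line at 0, and the oblique rows at the upper left are genes with no or few reads in DMSO, whose fitted values depend on the prior count.

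The yolk precursors fell. Vitellogenin genes took 10.3%, 17.7% and 14.1% of all reads in the 3 TDCIPP with DOX libraries and 37.5%, 37.1% and 46.4% in the 3 DMSO libraries. The groups did not overlap, and the means were 14.1% ± 3.7 and 40.3% ± 5.23 (SD, n = 3 each; exact 2-sided permutation p = 0.1, the smallest that 3 against 3 can give). All 8 vitellogenin genes fell in edgeR, where 6.37% of all tested genes fell. The most abundant, vtg1, stood at 38581, 70062 and 61809.6 CPM in TDCIPP with DOX and 252214, 332747 and 435986 CPM in DMSO (log2 fold change -2.58 ± 0.48, edgeR adjusted p = 0.00678). The steepest fall was that of vtg6, at -2.96 ± 0.49, and the shallowest that of vtg7, at -2.20 ± 0.54. Reads can be shared out wrongly among vtg1, vtg4, vtg5, vtg6 and vtg7, whose sequences are almost the same. The others, vtg2, vtg3 and vtg8, had log2 fold changes of -2.45, -2.69 and -2.70. The oestrogen receptor esr1, which drives their transcription, also fell, with 61.6, 99.8 and 155 CPM in TDCIPP with DOX and 287, 510.0 and 382 CPM in DMSO (log2 fold change -1.90 ± 0.43, adjusted p = 0.0173). The 2 genes of the other receptor type, esr2a (-0.63 ± 0.34) and esr2b (-1.15 ± 0.48), did not pass the test. The list of vitellogenins and oestrogen receptors kept a negative median under each scaling, -2.45 with TMM and -1.42 with library totals.

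**Figure D2:**
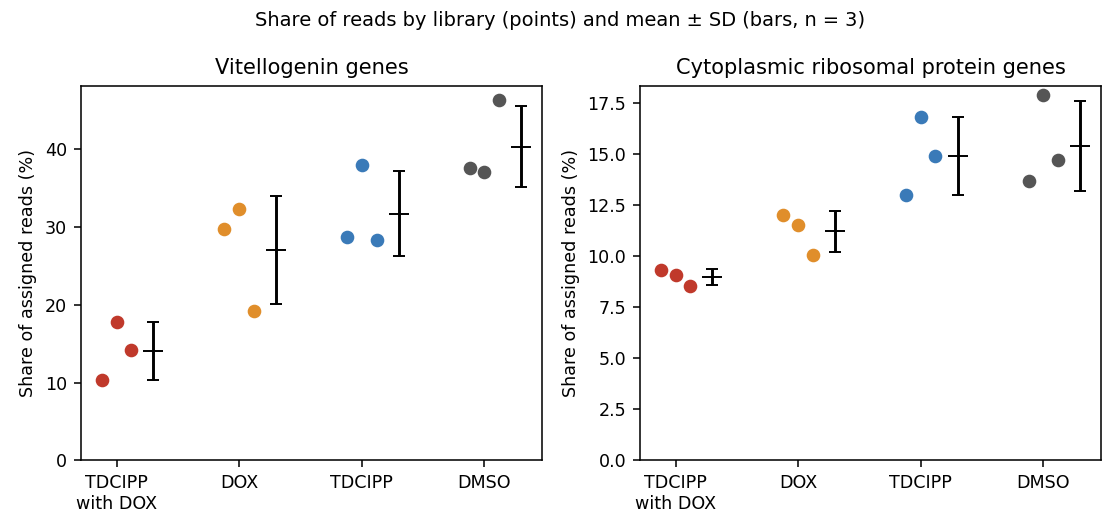
Share of all assigned reads (%) taken by the 8 vitellogenin genes (left) and by 89 cytoplasmic ribosomal protein genes (right) in each library. Points are libraries and bars mark the mean ± SD of 3 libraries for TDCIPP with DOX, DOX, TDCIPP and DMSO. The TDCIPP with DOX libraries sit at 10.3 to 17.7% for vitellogenins, below all DMSO libraries at 37.1 to 46.4%, and likewise below them for ribosomal proteins.

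Genes that build and run the ribosome fell together. Of 88 cytoplasmic ribosomal protein genes tested, 82 fell and 0 rose, with a median log2 fold change of -1.82. They took 9.32%, 9.09% and 8.53% of all reads in TDCIPP with DOX and 13.7%, 17.9% and 14.7% in DMSO. These are shares of library totals, which TMM does not enter. The groups did not overlap (exact 2-sided permutation p = 0.1, the smallest possible). The small-subunit gene rps28 stood at 515, 451 and 455 CPM in TDCIPP with DOX and 1565, 2275 and 1804 CPM in DMSO, a log2 fold change of -1.99 ± 0.22 (edgeR adjusted p = 0.0018). The large-subunit gene rpl38 had 265, 211 and 235 CPM, against 667, 1034 and 842 CPM. In both genes the 3 TDCIPP with DOX libraries lay close together and far below every DMSO library. How reads that fit several places in the genome were counted is not given in the sources used here. With library totals 81 members still fell and the median was -0.79. Nucleolar genes that assemble ribosomes moved alike: 53 of 70 fell and 0 rose (median -1.42; -0.40 with library totals, where 7 fell). Among them pno1, a factor of small-subunit maturation, had 94.7, 93.5 and 90.1 CPM in TDCIPP with DOX and 316, 431 and 331 CPM in DMSO. The rRNA transcription and processing factor mybbp1a had 15.6, 16.2 and 10.9 CPM, against 49.1, 92.4 and 61 CPM, a log2 fold change of -2.25 ± 0.28 (adjusted p = 0.0019). The nucleolar helicase ddx21 (-2.51 ± 0.23), the GTPase gtpbp4 (-2.74 ± 0.27) and the ribosomal protein importer ipo7 (-1.98 ± 0.18) were among the 15 smallest adjusted p-values of the whole comparison. Falls among the assembly genes numbered 31 (without TDCIPP with DOX replicate 3) to 58 (without DOX replicate 3) when 1 library was left out.

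Translation factors fell in part, as did repressors of cap-dependent translation. Of 65 initiation factor genes 22 fell and 1 rose, with a median of -0.54 that turned to 0.49 with library totals, where 16 rose and 12 fell. Among them were the eIF3 subunits eif3m (-1.78 ± 0.22) and eif3f (-1.64 ± 0.22). The eif4ebp genes encode proteins that hold the cap-binding factor eIF4E. Of this family 3 of 4 tested genes fell, and all 3 are also counted among the 22 initiation factor genes that fell. One of them, eif4ebp3, had the smallest adjusted p of all genes. It stood at 9.45, 12.4 and 10.6 CPM in TDCIPP with DOX and 242, 336 and 321 CPM in DMSO (log2 fold change -4.79 ± 0.28, edgeR adjusted p = 3.81e-05), a 27.7-fold difference with no overlap. With DOX alone it had 51, 52.5 and 30.4 CPM and with TDCIPP alone 76.6, 98.6 and 85.6 CPM, so each single agent lay between the 2 groups. Its relative eif4ebp3l had 5.43, 7.61 and 6.68 CPM in TDCIPP with DOX and 32, 86.4 and 54.3 CPM in DMSO (log2 fold change -3.13 ± 0.45), and eif4ebp1 fell less, by a log2 fold change of -1.18 ± 0.32. The chaperonin that folds new actin and tubulin, encoded by the cct genes, fell as well, for example cct8 (-1.79 ± 0.23) and tcp1 (-1.10 ± 0.16).

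Feedback inhibitors of ERK signalling rose in part. Of 21 such genes 7 rose and 0 fell (median 1.18). The ERK phosphatase dusp4 stood at 27.2, 25.4 and 41.5 CPM in TDCIPP with DOX and 2.59, 2.91 and 2.15 CPM in DMSO (log2 fold change 3.62 ± 0.47, edgeR adjusted p = 0.002). The Sprouty gene spry4, an adaptor that damps receptor tyrosine kinase signalling, had 54.8, 65.1 and 114 CPM, against 13.3, 23.3 and 15.3 CPM. For dusp6, the cytoplasmic ERK phosphatase, the values were 99.9, 54 and 145 CPM in TDCIPP with DOX and 17.5, 26.2 and 42.6 CPM in DMSO (log2 fold change 1.79 ± 0.43, adjusted p = 0.0215). The groups did not overlap in any of these genes, and the TDCIPP with DOX libraries were spread most widely in dusp6. The phosphatase dusp5 (4.82 ± 0.86) and the ephrin receptor epha2a (4.25 ± 0.70) also rose. Rises in this list numbered 4 (without DMSO replicate 1 or 2) to 10 (without DOX replicate 3) when 1 library was left out, and 16 with library totals.

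Immediate early transcription factors rose in 9 of 30 cases and fell in 0 (median 1.62). The zinc finger factor egr2a had 37.4, 58.7 and 112 CPM in TDCIPP with DOX and 1.32, 3.54 and 0.582 CPM in DMSO (log2 fold change 5.26 ± 0.70, edgeR adjusted p = 0.00217). The AP-1 subunit fosl1a had 5.77, 13.5 and 17.2 CPM, against 0.545, 1.12 and 0.314 CPM, and egr3 had 3.63, 10.7 and 27.4 CPM, against 0.0908, 0.291 and 0.538 CPM. All 3 were highest in TDCIPP with DOX replicate 3 and lowest of that group in replicate 1. The spread was wider still in fosb, with 0.404, 8.39 and 24.8 CPM in TDCIPP with DOX and 0.545, 0.242 and 0 CPM in DMSO, where replicate 1 lay within the DMSO range. Without the 4 libraries with intestine or oocyte transcripts, 5 members of the immediate early list rose. Rises numbered 4 (without TDCIPP with DOX replicate 2 or 3 or DMSO replicate 1 or 3) to 12 (without DOX replicate 3) when 1 library was left out, and 20 with library totals.

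The largest rises included secreted proteins and adhesion receptors that were almost without reads in DMSO. Leptin a (lepa), the fish homologue of the mammalian satiety hormone, had 52.8, 34.8 and 113 CPM in TDCIPP with DOX and no read in any DMSO library, which makes it at least 1449-fold higher by a floor of 3 reads over the DMSO group (edgeR adjusted p = 0.00377). It had 79.2, 19.6 and 8.98 CPM with DOX alone and no read with TDCIPP alone. The secreted proteoglycan esm1, an endothelial marker in mammals, stood at 796, 645 and 1279 CPM in TDCIPP with DOX and 0.998, 0.436 and 0.986 CPM in DMSO (log2 fold change 10.12 ± 1.02, adjusted p = 0.00157). In the list of endothelial markers 2 of 32 rose (6.25%, near the 5.33% of all tested genes that rose), and the median was 0.11. The second riser was stab2, a scavenger receptor (6.88, 22.1 and 3.1 CPM in TDCIPP with DOX, 0.545, 0.679 and 0.851 CPM in DMSO). The collagen-binding integrin genes itga2.1 (15, 20.04 and 49.1 CPM in TDCIPP with DOX, 0, 0.0485 and 0.269 CPM in DMSO) and itga2.3 (26, 26.1 and 68.5 CPM, against 0.0908, 0.533 and 0 CPM) rose by log2 fold changes of 7.99 ± 1.05 and 7.60 ± 1.14. They are near copies of each other, so their reads may be split. The phospholipid transfer protein gene pltp had 1026, 144 and 236 CPM, against 2.59, 1.07 and 1.16 CPM, and the endothelial lipase gene lipg 138, 134 and 165 CPM, against 1.09, 5.38 and 1.97 CPM. The level of lipg differed little among the 3 TDCIPP with DOX libraries, whereas pltp was far higher in replicate 1 than in the other two. The cystine importer slc7a11 had 19.8, 8.96 and 16.6 CPM in TDCIPP with DOX and 0.182, 0 and 0.0448 CPM in DMSO (log2 fold change 7.56 ± 1.06). Of the other large rises, scpp1 (22.6, 9.33 and 96.8 CPM in TDCIPP with DOX), rtn4rl2a (2.85, 3.47 and 36.9 CPM), crispld1b (2.71, 1.39 and 12.3 CPM) and pcloa (12, 1.83 and 8.43 CPM) had no read in DMSO and varied widely between libraries. By the same floor they were at least 929, 312, 119 and 161 times as high.

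**Figure D3:**
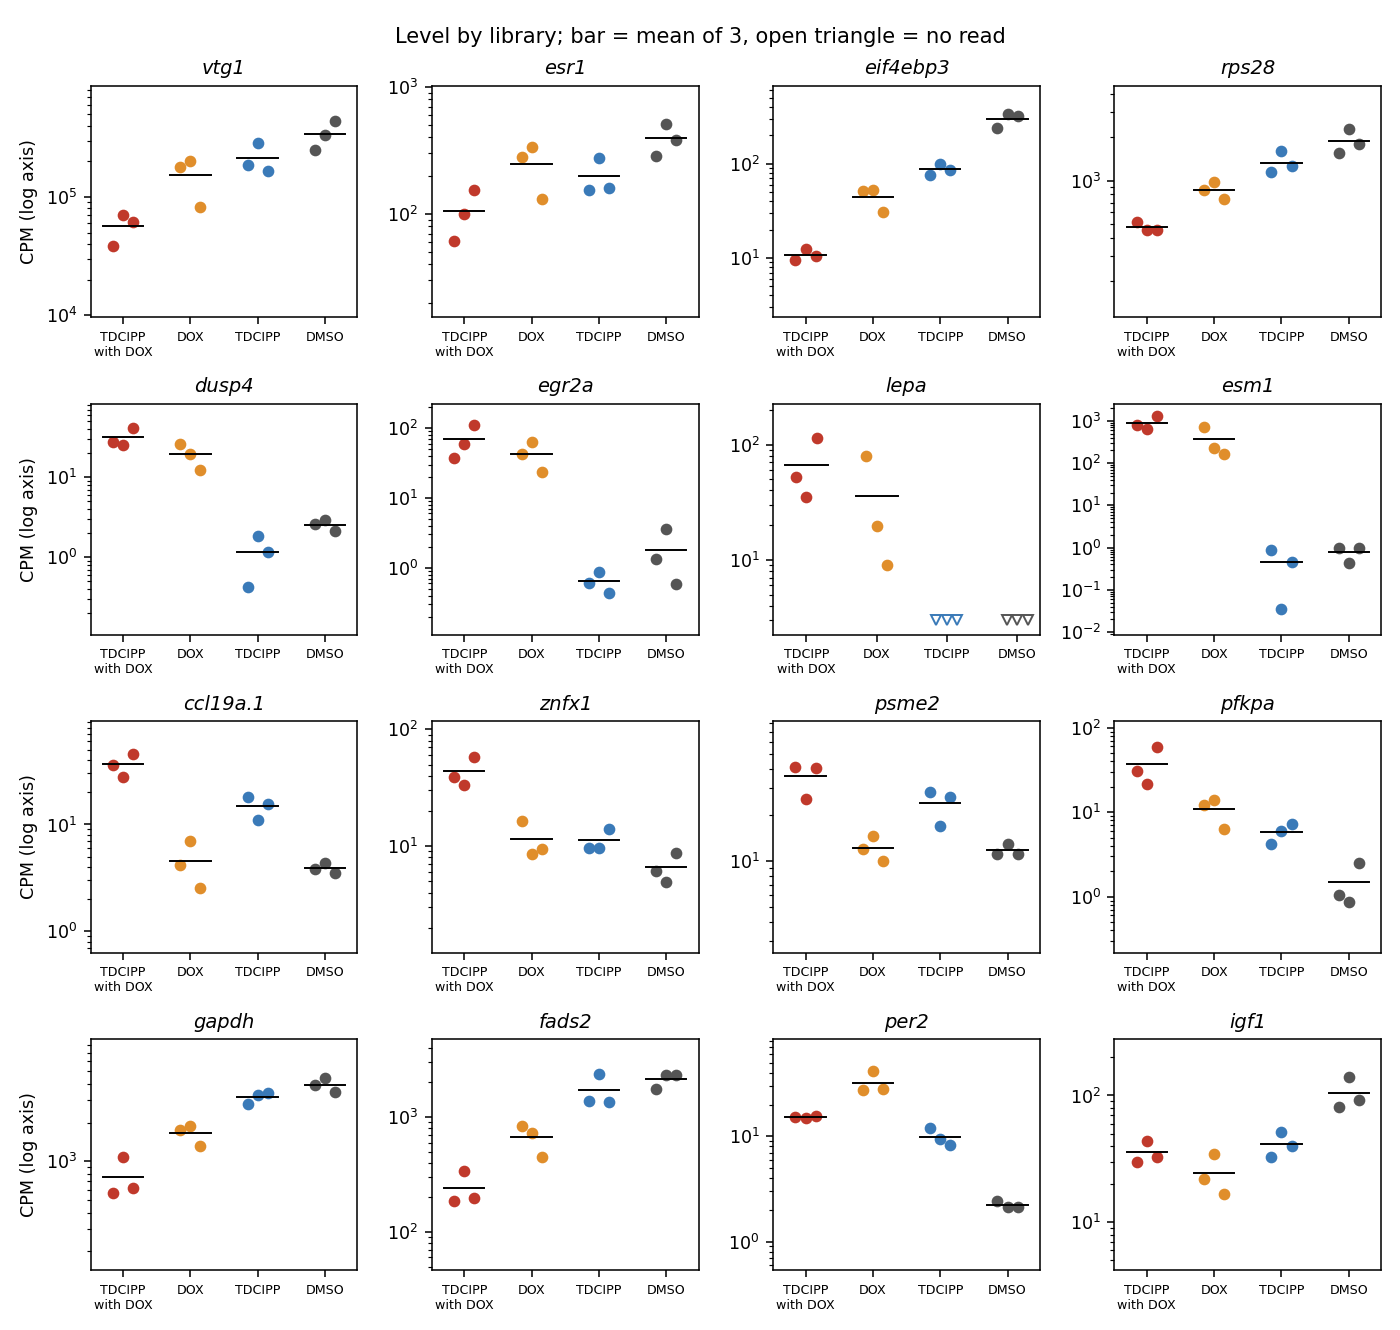
Level (CPM, log axis) of 16 genes in each library of the TDCIPP with DOX, DOX, TDCIPP and DMSO groups. Points are libraries, horizontal bars are group means and open triangles at the bottom edge mark libraries with no read. For esm1 and lepa the TDCIPP with DOX and DOX libraries lie far above the TDCIPP and DMSO libraries, whereas eif4ebp3 is lowest in TDCIPP with DOX and highest in DMSO.

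Among the largest falls were genes of transporters and enzymes. The sulphate transporter slc13a1 had 0.141, 0.284 and 3.36 CPM in TDCIPP with DOX and 5.72, 210.2 and 4.21 CPM in DMSO (log2 fold change -5.87 ± 1.63, edgeR adjusted p = 0.0405). The fatty acid desaturase fads2, which makes long-chain polyunsaturated fatty acids, had 186, 338 and 196 CPM, against 1746, 2344 and 2329.9 CPM (log2 fold change -3.16 ± 0.36, adjusted p = 0.0018). The deiodinase dio2, which activates thyroid hormone, had 67.5, 138 and 167 CPM in TDCIPP with DOX and 919.5, 1715 and 827 CPM in DMSO. The 15 largest falls were chosen among genes with no overlap between the groups, so these 3 genes show none by selection. The high mean of slc13a1 in DMSO was owed to replicate 2. The thiamine transporter slc19a3a (-3.21 ± 0.83), the coactivator pprc1 (-3.18 ± 0.64) and the fibrillar collagen col5a1 (-3.29 ± 0.52) were also among the 15 largest falls.

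The number of cell division genes called depended on which libraries entered the fit. With all 12 libraries, DNA replication genes rose in 5 of 58 cases (median 1.07; 5.33% of all tested genes rose), among them pcna, the sliding clamp, with 29.2, 25.3 and 46.9 CPM in TDCIPP with DOX and 9.44, 13.2 and 7.12 CPM in DMSO (log2 fold change 1.77 ± 0.51, edgeR adjusted p = 0.0465). The replication helicase subunit mcm3 had 6.36, 6.82 and 10.2 CPM, against 0.771, 3.35 and 1.7 CPM, and the maintenance methylation cofactor uhrf1 7.63, 5.97 and 10.6 CPM, against 1.09, 2.91 and 2.46 CPM. None of these overlapped between the groups. Rises among replication genes numbered 0 (without TDCIPP with DOX replicate 3 or DMSO replicate 1) to 22 (without DOX replicate 3) when 1 library was left out, 17 with only the 6 libraries compared and 26 with library totals. Of 54 mitosis genes edgeR called 0, although the median was 1.36. Before adjustment 7 had a p under 0.05 with a rise and 0 with a fall, while DESeq2 called 4 higher. The proliferation marker mki67 had 7.37, 8.96 and 15.8 CPM in TDCIPP with DOX and 1.45, 1.89 and 1.93 CPM in DMSO (log2 fold change 2.60 ± 0.78, adjusted p = 0.0532), and cyclin A2 (ccna2) had 4.99, 4.83 and 4.59 CPM, against 4.86, 0.679 and 3 CPM. The DOX group, which shares the fit, had 1.9, 1.17 and 80.4 CPM of ccna2, with replicate 3 far above the other two. In the mitosis list 15 genes rose without DOX replicate 3, 12 with only the 6 libraries compared, 8 without the 4 libraries with intestine or oocyte transcripts and 7 with library totals, and 0 without any one library of the compared groups. The cell cycle inhibitor cdkn1a fell, with 0.686, 1.03 and 0.927 CPM in TDCIPP with DOX and 2.81, 5.33 and 3.99 CPM in DMSO.

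Inflammatory cytokine genes gave no call with all 12 libraries and TMM. EdgeR called 0 of 28 higher and 0 lower, with 6 rises and 0 falls at an unadjusted p under 0.05. DESeq2 called 2 higher. In edgeR 4 rose without DOX replicate 3, 4 without the 4 libraries with intestine or oocyte transcripts, 3 with only the 6 libraries compared, 5 with library totals that left out the vitellogenins and 12 with library totals. Interleukin 1 beta (il1b) stood at 8.7, 4.07 and 1.21 CPM in TDCIPP with DOX and 1.77, 0.485 and 0.762 CPM in DMSO (log2 fold change 2.21 ± 0.82, edgeR adjusted p = 0.107). Tumour necrosis factor (tnfa) had 0.222, 0.0178 and 0.129 CPM, against 0.318, 0.194 and 0.224 CPM, and the acute phase gene saa 81.2, 4.87 and 0.129 CPM, against 3.49, 2.81 and 1.43 CPM. In all 3 genes the ranges of the groups overlapped, and saa differed by orders of magnitude between the libraries given both agents.

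Chemokines rose in 7 of 46 cases and fell in 0 (median 1.19). The gene ccl19a.1, which encodes a ligand that attracts lymphocytes and dendritic cells in mammals, had 36.2, 27.6 and 46 CPM in TDCIPP with DOX and 3.86, 4.36 and 3.49 CPM in DMSO (log2 fold change 3.23 ± 0.38, edgeR adjusted p = 0.0018). The neutrophil attractant cxcl8a had 3.86, 3.38 and 3.17 CPM, against 0.726, 0.873 and 0.762 CPM (log2 fold change 2.13 ± 0.45, adjusted p = 0.0123). Both were higher in every TDCIPP with DOX library than in any DMSO library. By contrast ccl19a.2 had 0.525, 0.48 and 22.8 CPM in TDCIPP with DOX, against 0, 0 and 0.0448 CPM in DMSO, so nearly all of it lay in replicate 3. Genes of the NF-kB pathway rose in 8 of 52 cases and fell in 0 (median 0.83). They included bcl3, a nuclear cofactor of NF-kB, with 22.3, 25.5 and 17.6 CPM in TDCIPP with DOX and 0.817, 0.291 and 0.896 CPM in DMSO, the kinase ikbke with 11.2, 8.23 and 8.75 CPM, against 3.4, 1.84 and 1.97 CPM, and the subunit relb with 13, 9.36 and 11.7 CPM, against 4.54, 6.01 and 5.15 CPM. Chemokine rises numbered 2 (without DMSO replicate 1 or 2) to 8 (without DOX replicate 3) when 1 library was left out and 25 with library totals. In the NF-kB list they numbered 3 (without TDCIPP with DOX replicate 1 or 3 or DMSO replicate 1) to 9 (without DOX replicate 3) and 35.

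Interferon-stimulated genes held the most calls among the immune lists: 16 of 53 rose and 1 fell (median 1.64). The RNA-binding antiviral factor znfx1 had 39.3, 33.7 and 58.5 CPM in TDCIPP with DOX and 6.08, 4.9 and 8.74 CPM in DMSO (log2 fold change 2.74 ± 0.35, edgeR adjusted p = 0.00193). The ubiquitin-like modifier isg15 had 9.81, 26.6 and 70.5 CPM, against 6.44, 7.71 and 5.87 CPM, and the transcription factor irf7 4.58, 7.82 and 38.3 CPM, against 2.63, 2.04 and 2.15 CPM. All 3 were highest in TDCIPP with DOX replicate 3, the library with the most fabp2, and the part of that library's other transcripts in the result was not tested. Without replicate 3 of TDCIPP with DOX, 3 of these genes rose and the median was 1.03. Without the 4 libraries with intestine or oocyte transcripts, 10 rose and the median was 1.25. The exonuclease gene isg20 went the other way, with 4.42, 6.29 and 4.12 CPM in TDCIPP with DOX and 12.1, 22.8 and 11.4 CPM in DMSO. Rises among interferon-stimulated genes numbered 3 (without TDCIPP with DOX replicate 3) to 22 (without DOX replicate 3) when 1 library was left out, and 46 with library totals.

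Markers of immune cells lay higher in part. Of 36 macrophage markers 6 rose and 0 fell, and their summed level was 544 to 976 CPM in TDCIPP with DOX and 297 to 559 CPM in DMSO, with a narrow overlap. Without the 4 libraries with intestine or oocyte transcripts 16 of them rose. The progranulin gene grn1 had 64.2, 36.5 and 15.2 CPM, against 6.72, 3.15 and 7.3 CPM, and the actin regulator coro1a of leucocytes 17.5, 11.4 and 13.6 CPM, against 3.31, 3.93 and 7.48 CPM, whereas the receptor csf1ra, which macrophages and pigment cells carry, had 13.6, 17.6 and 7.95 CPM, against 12.5, 20.03 and 24.8 CPM. Neither progranulin nor the actin regulator overlapped between groups, while csf1ra did. Of 26 neutrophil markers 4 rose and 1 fell. Their summed level was 243 to 665 CPM, against 139.8 to 286 CPM, and overlapped. Myeloperoxidase (mpx), the defining granule enzyme, had 77.8, 3.27 and 59.5 CPM in TDCIPP with DOX and 15.2, 27.5 and 1.34 CPM in DMSO, with replicate 2 of TDCIPP with DOX inside the DMSO range. EdgeR called no member of the T and NK cell list (22 tested, 2 up and 0 down at an unadjusted p under 0.05, 1 up in DESeq2) or of the B cell list (14 tested, 2 up and 0 down at an unadjusted p under 0.05, 0 in DESeq2), although the summed B cell level of 98.2 to 137 CPM in TDCIPP with DOX lay above that of 65.8 to 77.6 CPM in DMSO. Of these lists only mpeg1.3, a macrophage gene, had no read in the 6 libraries. In bulk tissue more cells of a type and more RNA per cell cannot be told apart, and the part of such cells in the immune lists above was not tested. Macrophage rises numbered 2 (without TDCIPP with DOX replicate 1 or DMSO replicate 1 or 2) to 7 (without DMSO replicate 3) when 1 library was left out and 25 with library totals. Neutrophil rises numbered 1 (without TDCIPP with DOX replicate 1 or DMSO replicate 1 or 2) to 4 (without DOX replicate 3) when 1 library was left out, 7 without the 4 libraries with intestine or oocyte transcripts and 13 with library totals.

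Proteasome subunits rose in many cases and fell in none. Of 50 genes 24 rose and 0 fell, with a median log2 fold change of 0.90. With library totals it was 1.93, a scaling that also raised the median of all tested genes, to 1.11. The activator subunit psme2 had 40.88, 25.6 and 40.7 CPM in TDCIPP with DOX and 11.12, 12.9 and 11.2 CPM in DMSO (log2 fold change 1.61 ± 0.26, edgeR adjusted p = 0.00377). The core subunit psma3 had 51.8, 37.3 and 52.1 CPM, against 21.2, 23.2 and 17.3 CPM, and the regulatory ATPase psmc5 50.9, 39.9 and 53.2 CPM, against 25.6, 24.1 and 20.7 CPM. The immunoproteasome subunit psmb8a, which is also an interferon-stimulated gene, had 20.6, 20.4 and 35.5 CPM in TDCIPP with DOX and 2.59, 5.29 and 5.47 CPM in DMSO. In each of these genes the lowest TDCIPP with DOX library lay above the highest DMSO library. Changes were small for most subunits and many calls lay near the threshold: without replicate 3 of TDCIPP with DOX 3 subunits rose, and without replicate 3 of DMSO 4, while the medians were 0.87 and 0.80. Lysosomal genes rose in 11 of 48 cases and fell in 1 (median 0.57), for example the hexosaminidase subunit hexb, with 50.5, 35.6 and 45.4 CPM in TDCIPP with DOX and 13.6, 10.8 and 11 CPM in DMSO. The autophagy kinase ulk2 fell, with 13.7, 26.7 and 16.5 CPM, against 47.6, 126 and 194 CPM. With TMM, 6 of 78 endoplasmic reticulum folding genes rose (7.69%, against 5.33% of all tested genes) and 8 fell (10.3%, against 6.37%). With library totals 54 rose and 0 fell, without the 4 libraries with intestine or oocyte transcripts 25 and 6, and with only the 6 libraries compared 22 and 13. The oxidase ero1a rose (2.27 ± 0.38), and the stress transcription factor xbp1 fell (-1.51 ± 0.30), as did the translocon subunit sec61a1 (-1.47 ± 0.28). Over all single libraries left out, proteasome rises numbered 3 (without TDCIPP with DOX replicate 3) to 27 (without DOX replicate 3) and lysosomal rises 4 (without TDCIPP with DOX replicate 1 or DMSO replicate 1 or 2) to 12 (without DOX replicate 3), against 48 and 33 with library totals.

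Glycolytic genes were called in both directions, in several cases with one isoenzyme lower and another higher. Of 50 genes 13 rose and 4 fell (median 0.63). The hepatic glucose transporter gene slc2a2 fell, with 75.7, 98.2 and 107 CPM in TDCIPP with DOX and 222, 228 and 169 CPM in DMSO (log2 fold change -1.14 ± 0.26, edgeR adjusted p = 0.0169). Isoenzymes known from muscle, brain or other tissues rose, among them aldoaa (70.4, 52 and 131 CPM in TDCIPP with DOX, 31.5, 18.3 and 25.8 CPM in DMSO), aldocb (2.36 ± 0.48), hexokinase 1 (hk1, 2.29 ± 0.36), pkma (1.28 ± 0.37) and lactate dehydrogenase A (ldha, 34.7, 32.3 and 143 CPM, against 6.44, 7.27 and 15.6 CPM). The platelet-type phosphofructokinase pfkpa had the smallest adjusted p of the list, with 30.8, 21.6 and 59.18 CPM in TDCIPP with DOX and 1.04, 0.873 and 2.51 CPM in DMSO (log2 fold change 4.65 ± 0.55, adjusted p = 0.00181). The paralogues of glyceraldehyde-3-phosphate dehydrogenase parted: gapdh fell (569, 1081 and 616 CPM, against 3918, 4448 and 3452 CPM) and its paralogue gapdhs rose (69.1, 55.1 and 54.1 CPM, against 10.1, 12.6 and 15.7 CPM). On the deposited FPKM scale, which is per gene length, gapdh averaged 717 FPKM and gapdhs 60.4 FPKM in TDCIPP with DOX, and gapdh averaged 1859 FPKM and gapdhs 6.33 FPKM in DMSO, so gapdh had the higher level in both groups. The liver glucokinase gene gck, which feeding induces, had 110.3, 26.7 and 121 CPM in TDCIPP with DOX and 1.41, 0.339 and 3.81 CPM in DMSO, and 386, 153 and 287 CPM with DOX alone. Of 33 genes in the gluconeogenesis list 1 rose, the insulin receptor substrate irs2b, and 4 fell. Fructose bisphosphatase was among those that fell (fbp1b, 107, 177 and 122 CPM in TDCIPP with DOX and 643, 533 and 588 CPM in DMSO), and the other falls were those of malate dehydrogenase genes. The gene pck1 (33.1, 109 and 57.4 CPM, against 118, 682 and 409 CPM) did not pass the test (edgeR adjusted p = 0.161). The median of that list, -0.54, turned to 0.48 with library totals, where 11 rose and 1 fell. Glycolysis gave 31 rises and 2 falls with library totals. When 1 library was left out, glycolytic rises numbered 7 (without DMSO replicate 2) to 17 (without DOX replicate 3) and falls 2 (without TDCIPP with DOX replicate 1) to 5 (without TDCIPP with DOX replicate 2 or 3 or DOX replicate 3), and gluconeogenic falls 2 (without any TDCIPP with DOX library or any DMSO library) to 6 (without DOX replicate 3).

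**Figure D4:**
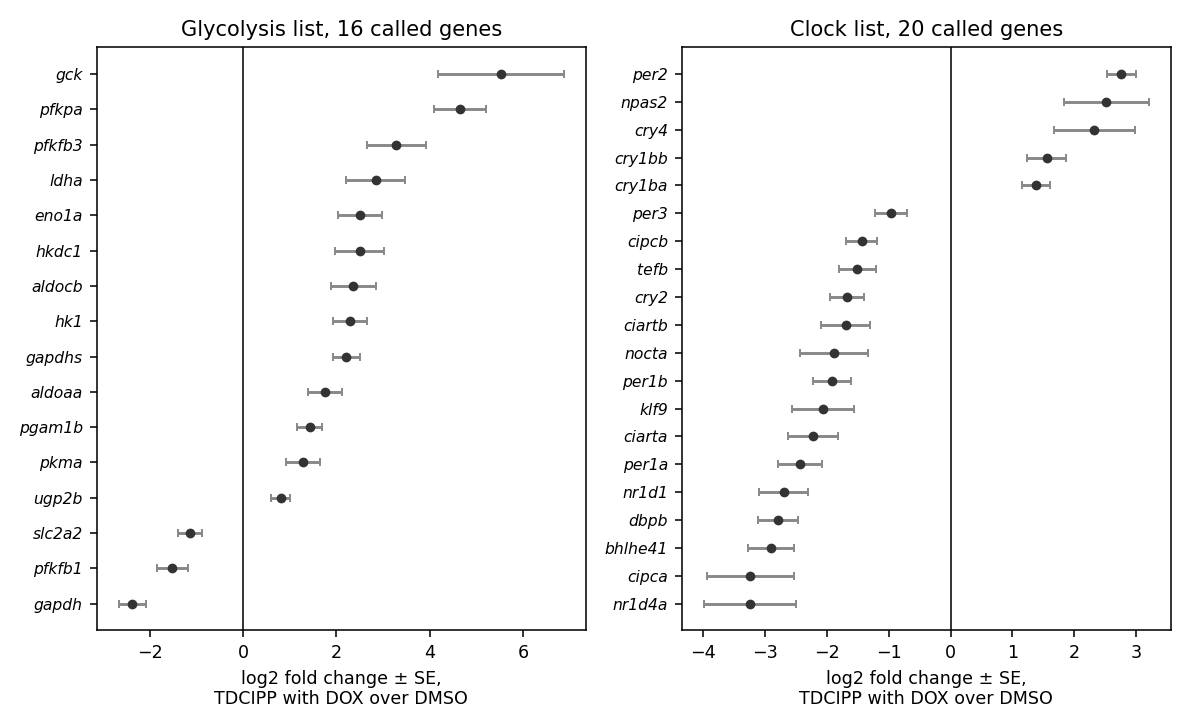
Log2 fold change ± SE (TDCIPP with DOX over DMSO, edgeR) of the called members of the glycolysis list (left, 16 of 17 genes) and of the clock list (right, 20 of 21 genes, without nr1d4b, which had no read in TDCIPP with DOX), sorted by size. Points right of the line at 0 are higher in TDCIPP with DOX, and in both lists members lie on either side, with gapdh at the low end and gck and pfkpa at the high end of glycolysis.

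Lipid genes moved in both directions. Of 56 genes of fatty acid synthesis 7 rose and 10 fell. Fatty acid synthase (fasn) had 236, 293 and 98.8 CPM in TDCIPP with DOX and 71.8, 65.6 and 56.3 CPM in DMSO (log2 fold change 1.70 ± 0.49, edgeR adjusted p = 0.0465), and the log2 fold change of acetyl-CoA carboxylase alpha (acaca) was 2.05 ± 0.54. The stearoyl desaturase scd rose (5.11 ± 1.16), as did the elongase elovl1a (4.06 ± 0.52). The desaturase fads2, described above, fell together with the mitochondrial carboxylase acacb (-1.45 ± 0.27), the acyltransferase agpat2 (-2.07 ± 0.36) and the acyl-CoA synthetase acsl1b (-2.52 ± 0.45). Of 43 genes of apolipoproteins and lipoprotein exchange 5 rose and 3 fell with TMM. The share that fell was near the 6.37% of all tested genes. With library totals 19 of them rose and 0 fell. With TMM apoeb rose (1300.1, 1017 and 899 CPM in TDCIPP with DOX, 501, 171 and 268 CPM in DMSO). The structural protein gene of very low density lipoprotein, apoba, fell (345, 608 and 241 CPM, against 1665, 1144 and 1007 CPM). The acetoacetyl-CoA thiolase acat2 at the start of sterol synthesis rose (3.88 ± 0.64). Of 34 sterol genes 1 rose (2.94%, against 5.33% of all tested genes) and 2 fell (5.88%, against 6.37%). The gene cyp7a1, which encodes the rate-limiting enzyme of bile acid synthesis, had 21.3, 46.8 and 40.8 CPM in TDCIPP with DOX and 192, 307 and 317 CPM in DMSO (log2 fold change -2.91 ± 0.58, adjusted p = 0.00957), and the bile acid exporter subunit slc51a rose (1.47 ± 0.32). Of 59 genes of fatty acid oxidation and ketones 1 rose and 9 fell, with a median of -0.42 that turned to 0.59 with library totals. The uncoupler ucp1 fell (-1.86 ± 0.29) and its relative ucp2 rose (2.05 ± 0.57). With library totals 20 rose and 3 fell in fatty acid synthesis, 11 and 0 among the sterol genes, and 21 and 1 in oxidation and ketones. With single libraries left out, rises in synthesis numbered 2 (without TDCIPP with DOX replicate 1 or DMSO replicate 1 or 3) to 9 (without DOX replicate 3) and falls 5 (without TDCIPP with DOX replicate 1) to 13 (without DOX replicate 3), and falls in oxidation 3 (without TDCIPP with DOX replicate 1 or DMSO replicate 2) to 12 (without DOX replicate 3).

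Genes of amino acid breakdown were called lower more often than higher with TMM, with 11 of 77 genes lower and 5 higher (median -0.28, and 0.75 with library totals). Adenosylhomocysteinase (ahcy), an enzyme of the methionine cycle, had 562, 846 and 589.7 CPM in TDCIPP with DOX and 3206, 3705 and 3883 CPM in DMSO (log2 fold change -2.43 ± 0.30, edgeR adjusted p = 0.0019). Glutamine synthetase (glula) had 16, 23.9 and 17.7 CPM, against 67.2, 168 and 210.1 CPM (log2 fold change -2.95 ± 0.48, adjusted p = 0.0037). Glutaminase (glsb), which runs the reverse reaction, rose (33.4, 23.5 and 33.1 CPM in TDCIPP with DOX, 8.85, 6.59 and 6.27 CPM in DMSO). Of 39 genes of nucleotide and one-carbon synthesis 13 fell and 1 rose (median -0.57, and 0.45 with library totals), for example cad, which begins pyrimidine synthesis (-1.53 ± 0.33). With library totals 33 rose and 3 fell in amino acid breakdown, and 11 and 1 in nucleotide and one-carbon synthesis. Falls in breakdown numbered 3 (without TDCIPP with DOX replicate 1 or 3) to 15 (without DOX replicate 3) when 1 library was left out, and those in nucleotide synthesis 3 (without TDCIPP with DOX replicate 1) to 18 (without DOX replicate 3).

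Plasma protein genes were divided. Of 28 genes 5 rose and 2 fell. The antitrypsin gene serpina1l had 15477, 13992 and 20552 CPM in TDCIPP with DOX and 6023, 3915 and 3193 CPM in DMSO (log2 fold change 1.93 ± 0.44, edgeR adjusted p = 0.017). Transthyretin (ttr), a thyroid hormone carrier, had 193, 136 and 202 CPM, against 68.5, 42.8 and 60.0 CPM, and shbg, which binds sex steroids, 957, 774 and 999 CPM, against 335, 342 and 188 CPM. In all 3 genes every TDCIPP with DOX library lay above every DMSO library. Coagulation factor genes gave 2 rises (5.88%) and 1 fall (2.94%) among 34, while 5.33% of all tested genes rose and 6.37% fell. In this list f9b was higher (2.06 ± 0.38) and its paralogue f9a lower (-1.03 ± 0.23). Of 41 complement genes edgeR called 0, where 5 rises and 2 falls had an unadjusted p under 0.05. DESeq2 called 1 higher. With library totals 15 plasma protein, 25 coagulation and 20 complement genes rose and 0 fell. Plasma protein rises numbered 2 (without TDCIPP with DOX replicate 3 or DMSO replicate 2 or 3) to 6 (without DOX replicate 3) when 1 library was left out.

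Clock genes held calls in both directions. Of 50 genes 5 rose and 16 fell (median -0.50, and 0.51 with library totals, where 20 rose and 8 fell). The light-induced period gene per2 had 15.08, 14.9 and 15.4 CPM in TDCIPP with DOX and 2.4, 2.13 and 2.15 CPM in DMSO (log2 fold change 2.76 ± 0.23, edgeR adjusted p = 0.000934), a narrow spread in both groups. The related gene per1a had 7.95, 6.4 and 5.09 CPM, against 28.63, 38.5 and 37.5 CPM, and the repressor nr1d1, known in mammals as REV-ERB alpha, 14.5, 16.5 and 15.9 CPM, against 73.7, 79.8 and 150.0 CPM. The D-box factor dbpb (-2.79 ± 0.33), the repressor bhlhe41 (-2.90 ± 0.37) and the cryptochrome cry2 (-1.68 ± 0.27) fell, and cry1ba rose (1.38 ± 0.23). The orphan receptor nr1d4b had no read in TDCIPP with DOX and 3.09, 0.97 and 4.08 CPM in DMSO, at least 138-fold lower by a floor of 3 reads over the group. Many clock genes change with the time of day, the labels give no hour of collection, and agents and hour cannot be told apart here. When 1 library was left out, clock falls numbered 11 (without TDCIPP with DOX replicate 1 or DMSO replicate 3) to 18 (without DOX replicate 3) and rises 3 (without any TDCIPP with DOX library or DMSO replicate 1 or 2) to 7 (without DOX replicate 3).

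With TMM, calls among hormone-related genes were more often falls than rises. Of 33 glucocorticoid response genes 8 fell and 0 rose, with a median of -0.59 that turned to 0.42 with library totals. They included klf9, with 10.9, 24.8 and 13.2 CPM in TDCIPP with DOX and 33.1, 68.5 and 103 CPM in DMSO, and hsd11b2, which inactivates cortisol, with 15.9, 18.4 and 27.7 CPM, against 71.4, 129 and 54.8 CPM. The genes per1a, per1b and klf9 belong to this list and to the clock list. Of 27 genes of the growth hormone and IGF axis 6 fell and 2 rose (median -0.31, and 0.72 with library totals). Insulin-like growth factor 1 (igf1) had 29.98, 43.9 and 32.7 CPM in TDCIPP with DOX and 80.6, 139 and 91.8 CPM in DMSO (log2 fold change -1.55 ± 0.32, edgeR adjusted p = 0.0102), the receptor ghrb 14.6, 58.4 and 22.6 CPM, against 164, 240.2 and 111 CPM, and cishb, a target and inhibitor of the same pathway, 1.55, 1.87 and 1.79 CPM, against 14, 11.8 and 14.8 CPM. The binding protein igfbp3 rose, with 45.1, 36.4 and 43.4 CPM, against 3.86, 2.57 and 5.87 CPM. The thyroid list had 3 rises and 5 falls among 18 (median -0.70, and 0.32 with library totals). The gene dio2 and the receptor gene thraa (-1.71 ± 0.34) fell and the carrier gene serpina7 rose (3.11 ± 0.74). With library totals the glucocorticoid list had 9 rises and 2 falls, the growth hormone list 10 and 1, and the thyroid list 3 and 1. With single libraries left out, glucocorticoid falls numbered 3 (without DMSO replicate 2) to 9 (without DOX replicate 3), growth hormone falls 1 (without TDCIPP with DOX replicate 1) to 7 (without DOX replicate 3) and thyroid falls 3 (without TDCIPP with DOX replicate 1) to 6 (without DOX replicate 3).

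Mitochondrial genes lay lower by TMM. Of 13 protein-coding genes of mitochondrial DNA 8 fell and 0 rose (median -0.98). Their share of all reads was 2.57% ± 0.187 in TDCIPP with DOX and 2.62% ± 0.33 in DMSO (SD, n = 3 each; exact 2-sided permutation p = 0.9), a difference within the spread, and with library totals 0 fell and the median was 0.04. For example mt-co2 had 3127, 3265 and 3359.5 CPM in TDCIPP with DOX and 7061, 9596 and 7934 CPM in DMSO. Nuclear subunits of the respiratory chain fell in 16 of 91 cases and rose in 4 (median -0.35, and 0.66 with library totals). The tissue variants of cytochrome oxidase subunit 4 parted: cox4i1 fell with TMM (-0.75 ± 0.21, and 0.27 with library totals) and cox4i2, which low oxygen induces in mammals, rose (38.9, 33.7 and 43.3 CPM in TDCIPP with DOX, 8.94, 4.99 and 8.65 CPM in DMSO). Mitochondrial ribosomal protein genes fell in 18 of 76 cases with none higher, and their median of -0.53 turned to 0.49 with library totals, where 12 rose and 0 fell. The respiratory chain had 50 rises and 2 falls with library totals. When 1 library was left out, falls numbered 2 (without any TDCIPP with DOX library or DMSO replicate 2) to 10 (without DOX replicate 3) in mitochondrial DNA, 6 (without TDCIPP with DOX replicate 1) to 27 (without DOX replicate 3) in the respiratory chain and 4 (without TDCIPP with DOX replicate 3) to 22 (without DOX replicate 3) in the mitochondrial ribosome.

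Detoxification genes were called in both directions with TMM. The gene cyp1a, the main target of the aryl hydrocarbon receptor, had 112, 147 and 189 CPM in TDCIPP with DOX and 585, 440.4 and 603 CPM in DMSO (log2 fold change -1.86 ± 0.31, edgeR adjusted p = 0.00404), and every TDCIPP with DOX library lay below every DMSO library. Of 33 genes of cytochrome P450 families 2 and 3 4 rose and 4 fell, with cyp3c3 at 161, 48.9 and 86.5 CPM, against 0.771, 2.76 and 2.11 CPM. Among 67 conjugating enzymes 3 rose and 1 fell, for example the glucuronosyltransferase ugt2a4 (247, 223 and 289 CPM in TDCIPP with DOX, 76.5, 69.2 and 72.4 CPM in DMSO) and the sulphotransferase sult1st1 (25.6, 23.7 and 37.2 CPM, against 2, 1.84 and 6.27 CPM). The Nrf2 list had 6 rises and 1 fall among 47, with glutathione reductase (gsr) at 37.3, 17.6 and 24.3 CPM in TDCIPP with DOX and 8.58, 8.1 and 10.8 CPM in DMSO, and the sensor keap1a lower (-1.32 ± 0.20). The conjugating list lay below the 5.33% and 6.37% of all tested genes that rose and fell. With library totals 14 cytochrome P450, 33 conjugating and 29 Nrf2 genes rose and 0 fell. With single libraries left out, cytochrome P450 falls numbered 0 (without TDCIPP with DOX replicate 1 or DMSO replicate 1 or 2) to 6 (without DOX replicate 3) and Nrf2 rises 4 (without TDCIPP with DOX replicate 3 or DMSO replicate 1 or 3) to 9 (without DOX replicate 3).

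**Figure D5:**
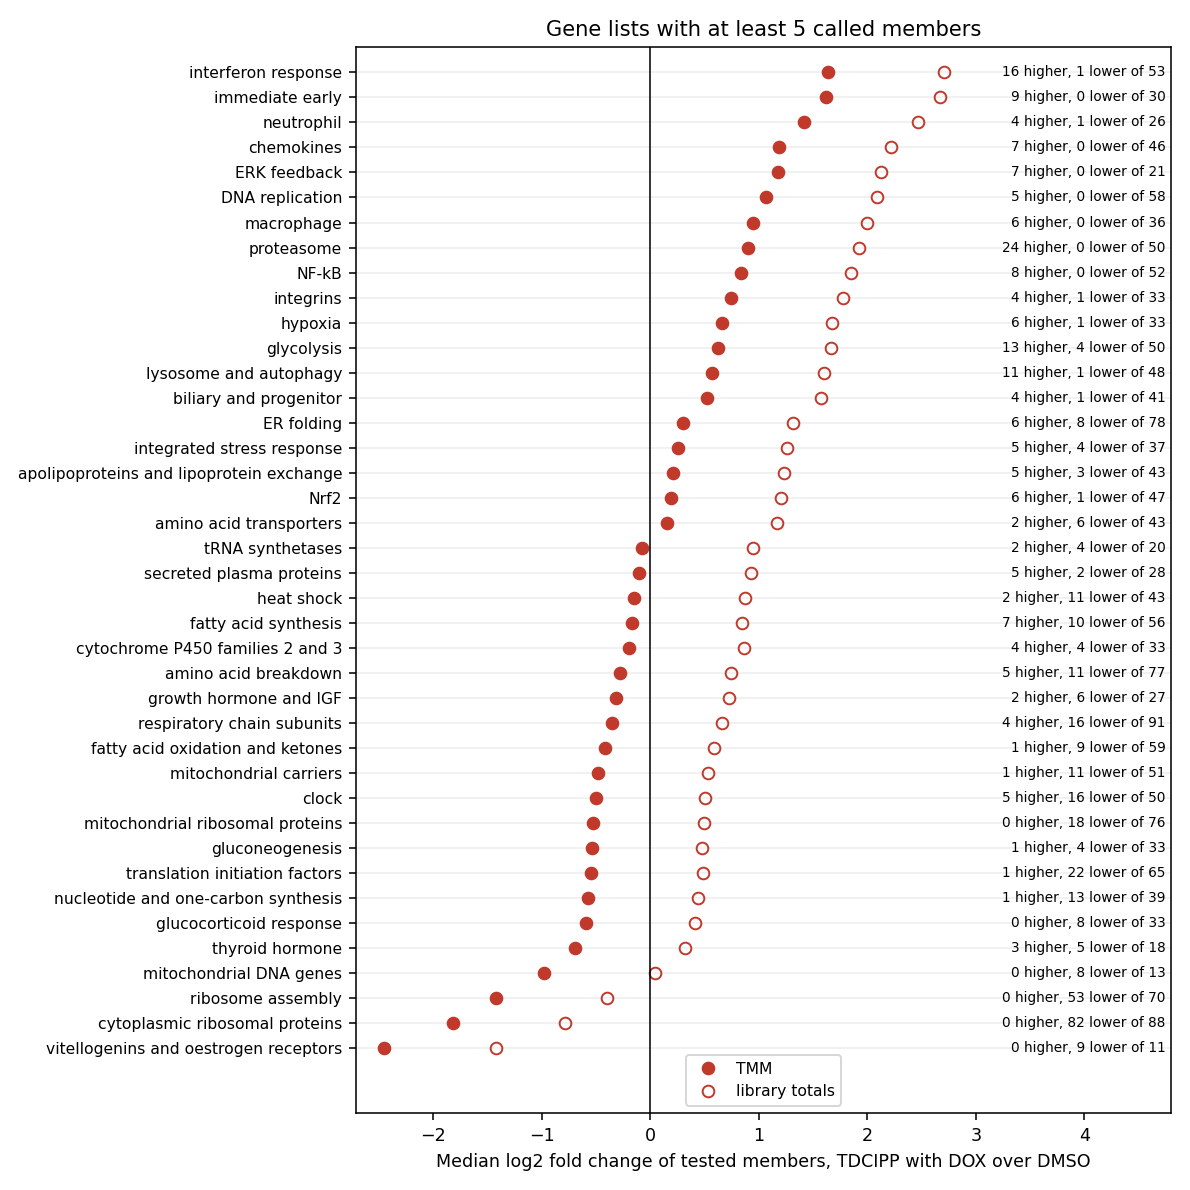
Median log2 fold change (TDCIPP with DOX over DMSO, TMM) of the tested members of 40 gene lists with at least 5 called members, as filled points, and the same median with library totals as open points. Text at the right gives the members that rose and fell over those tested. Cytoplasmic ribosomal proteins, ribosome assembly and vitellogenins lie left of 0 on both scales, whereas every other list that lies left of 0 with TMM lies right of it with library totals.

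Several smaller lists held calls in both directions, as did all tested genes, of which 5.33% rose and 6.37% fell. The share of hypoxia genes that fell and of heat shock genes that rose lay below these. Hypoxia genes rose in 6 of 33 cases (18.2%) and fell in 1 (3.03%), with a median of 0.66. Besides lepa they included the mitophagy receptor bnip3lb (41.6 ± 2.13 CPM in TDCIPP with DOX and 16.3 ± 3.45 CPM in DMSO, SD, n = 3 each). The paralogues vegfaa and vegfab, which encode an angiogenic growth factor, parted. The gene vegfaa, which is also in the stress response list, rose (1.93 ± 0.57, edgeR adjusted p = 0.0496). Its paralogue vegfab fell (24.2, 41.4 and 43 CPM in TDCIPP with DOX, 129.9, 142 and 131 CPM in DMSO). The integrated stress response list had 5 rises (13.5%) and 4 falls (10.8%) among 37, with the phosphatase subunit ppp1r15b at 9.09, 6.65 and 10.4 CPM in TDCIPP with DOX and 0.363, 0.242 and 0.224 CPM in DMSO. Of 43 heat shock genes 11 fell (25.6%) and 2 rose (4.65%). The median was -0.15, and 0.87 with library totals, and most of the falls were those of cct genes. The cytosolic chaperone hsp90ab1 fell (2022, 2221 and 2154 CPM, against 4649.6, 5018 and 4788 CPM) and its stress-inducible relative hsp90aa1.2 rose (7.81, 22.7 and 14.5 CPM, against 1.27, 0.921 and 0.986 CPM). With library totals the hypoxia list had 21 rises and 0 falls, the stress response list 21 and 1, and the heat shock list 20 and 1. When 1 library was left out, hypoxia rises numbered 1 (without TDCIPP with DOX replicate 2 or 3 or DMSO replicate 1 or 2) to 8 (without DOX replicate 3) and stress response rises 1 (without DMSO replicate 3) to 7 (without DOX replicate 3).

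The p53 target list had 2 rises (6.67%) and 2 falls (6.67%) among 30, near the 5.33% and 6.37% of all tested genes that rose and fell. The death receptor fas rose (3.01, 3.29 and 4.46 CPM in TDCIPP with DOX, 0.817, 1.07 and 0.851 CPM in DMSO), and cyclin G1 (ccng1) fell (186, 215 and 177 CPM, against 354, 487 and 523 CPM). Of 57 matrix genes 2 rose and 2 fell (3.51% each, below the shares of all tested genes). The membrane-bound collagenase mmp14a rose, with 15.3, 14.8 and 13.1 CPM, against 2.54, 1.94 and 3.36 CPM (log2 fold change 2.46 ± 0.33, edgeR adjusted p = 0.00207). Integrin genes rose in 4 of 33 cases and fell in 1. The one that fell was itga9, with 5.43, 4.71 and 6.42 CPM in TDCIPP with DOX and 17.3, 25.2 and 23.7 CPM in DMSO. In the acute phase and iron list 2 of 35 rose (5.71%, near the share of all tested genes) and 1 fell (2.86%). The rises were itih3a (1447, 1409 and 1615 CPM in TDCIPP with DOX, 728, 462 and 590.2 CPM in DMSO) and id1, a target of bone morphogenetic protein signals (12.8, 7.53 and 15.8 CPM, against 1.41, 0.921 and 1.84 CPM). In both genes the lowest TDCIPP with DOX library lay above the highest DMSO library. The gelatinase gene mmp9 did not pass the test, with 5.94, 1.81 and 0.539 CPM in TDCIPP with DOX and 0.363, 0.242 and 2.42 CPM in DMSO (edgeR adjusted p = 0.514). With library totals the rises numbered 9 in the p53 list, 17 in the matrix list, 18 among integrins and 16 in the acute phase and iron list.

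Genes for the transport and charging of amino acids were called lower more often than higher with TMM, and higher more often than lower with library totals. The same held over all tested genes, of which 6.37% fell and 5.33% rose with TMM. Of 43 transporter genes 6 fell (14.0%) and 2 rose (4.65%). One that fell was slc38a4, a hepatic carrier (307, 531 and 242 CPM in TDCIPP with DOX, 631, 1231 and 1753 CPM in DMSO). Mitochondrial carriers fell in 11 of 51 cases (21.6%) and rose in 1 (1.96%), with a median of -0.48, and 0.53 with library totals. Among those that fell was the adenine nucleotide exchanger slc25a5 (2373, 2599 and 2637 CPM, against 6008, 8427 and 7754 CPM). The tRNA synthetases had 2 rises (10%) and 4 falls (20%) among 20, with aars (-1.19 ± 0.19) and dars (-1.42 ± 0.25) lower. With library totals the amino acid transporters had 13 rises and 1 fall, the tRNA synthetases 12 and 0, and the mitochondrial carriers 16 and 1. Carrier falls numbered 4 (without TDCIPP with DOX replicate 1 or 3) to 14 (without DOX replicate 3) when 1 library was left out.

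Few or no calls came from the other lists. Over all tested genes 5.33% rose and 6.37% fell. In antigen presentation 2 of 30 (6.67%) rose, psmb8a and the peptide transporter tap1 (13.8, 7.45 and 11.57 CPM in TDCIPP with DOX, 5.49, 4.66 and 5.78 CPM in DMSO). The YAP, Wnt and Notch target list had 1 rise and 1 fall among 22, the rise being yap1 itself (1.11 ± 0.23) and the fall hes6 (-1.19 ± 0.34). The aryl hydrocarbon receptor list had 2 falls among 11 (18.2%, above the share of all tested genes), cyp1a and cyp1d1 (-1.56 ± 0.37). In the CISH and SOCS list 1 of 14 fell, cishb. EdgeR called none of 11 metallothionein and metal genes (1 up at an unadjusted p under 0.05, 1 up in DESeq2), none of 18 erythrocyte genes (1 up at an unadjusted p under 0.05, 1 up in DESeq2) and none of 9 islet genes (0 at an unadjusted p under 0.05, 0 in DESeq2). Of 6 testis genes 1 rose, the cilium and flagellum gene tekt4 (2.42, 1.87 and 2.33 CPM in TDCIPP with DOX, 0.0908, 0.0485 and 0.134 CPM in DMSO). With library totals 13 antigen presentation genes and 9 YAP, Wnt and Notch targets rose.

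Markers of other organs gave few calls. Over all tested genes 5.33% rose and 6.37% fell. In the exocrine pancreas list (20 tested) 0 rose and 1 fell, and the summed level was 2460.0, 651 and 1336 CPM in TDCIPP with DOX and 1051, 1550.4 and 3795 CPM in DMSO. In the intestine list 0 of 25 rose and 2 fell. Both genes that fell, rbp2a (-1.89 ± 0.34) and apoa4b.1 (-1.17 ± 0.30), were also abundant in the libraries with little fabp2, for example rbp2a with 162, 328 and 331 CPM in TDCIPP with DOX and 848, 1319.9 and 865 CPM in DMSO. Without TDCIPP with DOX replicate 3 the median of the intestine list was -1.45, and without DMSO replicate 3 it was 4.37, against 1.13 with all libraries. The ovary and oocyte list (25 tested) had a summed level of 28.8 to 175 CPM in TDCIPP with DOX and 67.5 to 147 CPM in DMSO, with 1 fall, that of gsdf (-2.23 ± 0.55). Of 35 hepatocyte transcription factors 1 rose and 2 fell, one of them nr1d1, and for 41 biliary and progenitor markers the counts were 4 and 1, with notch2 higher (47.4, 64.2 and 74.5 CPM in TDCIPP with DOX, 15.3, 14.9 and 21.8 CPM in DMSO). With library totals 17 biliary and progenitor markers and 17 hepatocyte transcription factors rose. Biliary rises numbered 1 (without TDCIPP with DOX replicate 1 or any DMSO library) to 6 (without DOX replicate 3) when 1 library was left out.

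The single-agent libraries allow the same livers to be set against each agent alone. Relative to DOX alone, 136 genes (0.71%) were higher and 267 (1.39%) lower in TDCIPP with DOX. Relative to TDCIPP alone, 388 (2.03%) were higher and 413 (2.16%) lower. With library totals these counts were 129 higher and 13 lower against DOX, and 2534 higher and 190 lower against TDCIPP. With library totals that left out the vitellogenins they were 71 and 61 against DOX, and 1085 and 287 against TDCIPP. These comparisons share the TDCIPP with DOX libraries with the comparison against DMSO. Of the 1021 genes higher than in DMSO, 68 were also called higher than with DOX alone, 313 higher than with TDCIPP alone and 13 higher than with both. Of the 1220 lower genes, 150 were called lower than with DOX alone, 390 lower than with TDCIPP alone and 67 lower than with both. For eif4ebp3 the log2 fold change was -2.04 ± 0.25 against DOX (edgeR adjusted p = 0.0176) and -3.00 ± 0.26 against TDCIPP (adjusted p = 0.00231). For dusp4 it was 0.70 ± 0.42 against DOX (adjusted p = 0.319) and 4.78 ± 0.50 against TDCIPP (adjusted p = 0.00319). The genes differed in which comparison with a single agent passed the test, and one that did not pass does not show equal levels. For esm1 the libraries had 796, 645 and 1279 CPM in TDCIPP with DOX, 730.3, 234 and 165 CPM with DOX, 0.858, 0.0347 and 0.463 CPM with TDCIPP and 0.998, 0.436 and 0.986 CPM in DMSO, and the difference from TDCIPP passed the test (adjusted p = 0.00257) where that from DOX did not (edgeR adjusted p = 0.274). For ccl19a.1 the values were 36.2, 27.6 and 46 CPM in TDCIPP with DOX, 4.18, 7.08 and 2.54 CPM with DOX, 17.9, 10.9 and 15.5 CPM with TDCIPP and 3.86, 4.36 and 3.49 CPM in DMSO, and the difference from DOX passed the test (adjusted p = 0.0176) where that from TDCIPP did not (edgeR adjusted p = 0.0604). Whether the single agents differ from each other was not tested. The proteasome activator psme2 had 40.88, 25.6 and 40.7 CPM in TDCIPP with DOX, 12, 14.6 and 10.1 CPM with DOX and 28.3, 16.9 and 26.2 CPM with TDCIPP. By contrast per2 had a lower level than with DOX alone. It had 27.5, 41.7 and 28 CPM with DOX and 12.1, 9.47 and 8.27 CPM with TDCIPP, and its log2 fold change against DOX was -1.10 ± 0.21 (edgeR adjusted p = 0.0397). Likewise znfx1 was called higher than each single agent, with 16.5, 8.54 and 9.46 CPM under DOX and 9.68, 9.71 and 14.1 CPM under TDCIPP (adjusted p = 0.0333 and 0.0126). The insulin receptor substrate irs2b had 15.9, 14.4 and 17.1 CPM in TDCIPP with DOX, 4.97, 3.07 and 3.74 CPM with DOX, 5.3, 6.1 and 6.53 CPM with TDCIPP and 5.4, 4.95 and 7.39 CPM in DMSO, and was called higher than each of the 3. The amino acid transporter slc43a1a had 13, 10.02 and 14.2 CPM in TDCIPP with DOX, 77.4, 73.5 and 39.9 CPM with DOX, 34.7, 50.4 and 33.8 CPM with TDCIPP and 29, 39.1 and 28.4 CPM in DMSO, and was called lower than each. The genes irs2b and slc43a1a were picked for this after their values were seen. The counts against DOX rest on few libraries: leaving out any TDCIPP with DOX library, or fitting only the 6 libraries of the 2 groups, left 0 calls, and leaving out DOX replicate 2 left 2, whereas DESeq2 with all libraries made 2176.

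The authors' deposited table holds their own calls for TDCIPP with DOX against DMSO, 656 genes higher and 700 lower. Of these, 492 higher (75% of the authors' higher calls and 48.2% of edgeR's) and 632 lower (90.3% and 51.8%) were shared with the edgeR calls, and 0 genes were called in opposite directions.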

How the data were processed

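RNA libraries of 12 zebrafish liver samples, 3 per group, were made with the NEBNext Ultra kit, per the labels' protocols. The authors aligned reads with HISAT, per the submitters' processing notes, and the sources used here give neither its version nor the genome build, annotation, strand setting or counting tool. The deposited table holds raw read counts per gene, the authors' FPKM values, and for each of the authors' comparisons log2 fold changes and p-values. The counts were tested with edgeR 4.0.16 (R 4.3.3, limma 3.58.1): TMM scaling, filterByExpr, glmQLFit on all 12 libraries with 1 mean per group, glmQLFTest, 2-sided, Benjamini-Hochberg adjusted p under 0.05 over 19160 genes. The common dispersion was 0.297 (biological coefficient of variation 54.5%, 8 residual degrees of freedom). DESeq2 1.42.0 was an alternative, with other scalings, filters, subsets of libraries and a replicate block. FPKM served only to compare levels between gapdh and gapdhs. The pipeline was tested on simulated data.

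Members and the 67 gene lists were chosen with earlier results of these data known, so a list's count is not independent evidence. Genes named are up to 4 per list with at least 3 calls, the 15 largest rises and falls with a mean of at least 5 CPM and no overlap, the 15 smallest adjusted p-values and a fixed set, of which the text prints a part, and all other named genes were chosen after their values were seen. List counts are to be read against the percent of all genes called, with no set test. The levels of a few genes are not reported here, and no sequence was used.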

Additional observations from a re-analysis of the deposited data

How the results depend on the processing

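Counts of calls depended on the scaling, the tool and the libraries. Against DMSO, 2241 genes were called with TMM, 7271 with library totals (6966 higher, 305 lower), 3526 with library totals without vitellogenins (2930 higher, 596 lower) 3496 with DESeq2 (1620 higher, 1876 lower) and 2216 with its size factors in edgeR. Leaving out 1 library gave 1017 to 3391 calls (440 to 1673 higher, 543 to 1718 lower), lowest without TDCIPP with DOX replicate 1 and highest without DOX replicate 3, which was added after the data were seen. Against DOX, the 403 calls became 142 with library totals, 132 without vitellogenins in the totals, 143 with no filter, 2176 with DESeq2, 57 without the 4 libraries with intestine or oocyte transcripts, 0 with only the 6 libraries compared and 0 to 476 without 1 library. Against TDCIPP, the 801 calls became 2724 with library totals, 1372 without vitellogenins in the totals, 1677 with DESeq2 and 127 to 609 without 1 library, lowest without TDCIPP replicate 2. Of the list genes 561 were called, 1140 with library totals and 325 to 748 without 1 library. The difference in vitellogenin share stayed negative, -28.1 to -23.2 percentage points without 1 library and -3.42 without the near-identical copies. With library totals cox4i1, called lower with TMM, turned to 0.27, and tfa, not called with TMM, turned to 0.84. Of the other uncalled named genes, csf1ra (0.50), esr2a (0.39), fabp10a, prss1 and tnfa also turned positive there, and fabp2, prss1, saa and tfa turned in at least 1 other setting. Of 173 named genes, a count that leaves out vegfaa, 158 were past the threshold with TMM and all 12 libraries. Of these, 31 kept their sign but were no longer past it with library totals, and 22 to 47 without 1 library of the compared groups. Whether the replicate numbers pair the libraries was not settled. Deviations of same-numbered TDCIPP with DOX and DMSO libraries correlated by 0.098, 0.137 and 0.204, and differently numbered libraries were not compared. The replicate block gave 2060 calls against DMSO, 256 against DOX and 727 against TDCIPP. The cause of these shifts was not tested. Depth limits genes with no or few reads in a group, whose fitted fold changes depend on the prior count.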
